A study of Homo sapiens with 14 samples.

Results

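Lamins and the proteins of the inner nuclear membrane form the layer that lines the nucleus and holds part of the chromatin at its edge. The genes described here are LMNA, LMNB1 and LMNB2, which encode the lamins, LBR, which encodes the lamin B receptor, TMPO, EMD, LEMD2 and LEMD3, which encode proteins with a LEM domain, and SUN1 and SUN2. They were chosen by name and matched by symbol to the gene identifiers of the deposited tables, which gave 10 genes of 78686 identifiers. All 10 passed the filter on low counts in both sets of libraries. The rule that picks them uses no measured value, but the 10 genes were chosen with earlier results of these data known.

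The A-type lamins from LMNA and the B-type lamins from LMNB1 and LMNB2 are intermediate filament proteins that assemble into a meshwork under the inner nuclear membrane. LBR binds B-type lamins and heterochromatin protein 1 and also has sterol reductase activity, and the LEM domain of the other membrane proteins binds the small chromatin protein BAF. SUN proteins span the inner membrane and join nesprins of the outer membrane in the LINC complex, which couples the nucleus to the cytoskeleton.

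The libraries came from HCT116, a human colon carcinoma cell line, engineered to express the auxin receptor osTIR1(F74G) and to carry SAF-A-mAID-Halo, a degron- and Halo-tagged form of the nuclear matrix protein SAF-A, which the gene HNRNPU encodes. The ligand 5-Ph-IAA marks the tagged protein for degradation, and the series asks how its acute loss affects gene expression. Every group, controls included, carried the receptor and the tag, and the labels do not say whether the line is 1 clone. Total RNA was sequenced from 14 libraries in 7 groups of 2.

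In the time-course set, cells received DMSO vehicle, 5-Ph-IAA for 3 h or 5-Ph-IAA for 12 h. In the Nutlin set, cells received 5-Ph-IAA with Nutlin for 3 h, Nutlin for 3 h, 5-Ph-IAA for 3 h, or DMSO vehicle. The sample titles give no duration for DMSO in either set, so whether vehicle and treated cells had the same time in culture is not known. Nutlin blocks the binding of MDM2 to p53. Nothing in the labels ties the replicates to separate cultures, and a p-value here therefore covers the spread of these libraries only, which may be technical.

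Depth was 29578916 to 35140464 expected counts in 5 time-course libraries and 3535163 in 12 h replicate 2, and it was 12646787 to 17233327 in the Nutlin set. In CPM, counts scaled to library depth, HNRNPU RNA had 509 and 545 in vehicle, 524 and 547 at 3 h, and 671 and 636 at 12 h (12 h over vehicle, log2 fold change 0.31 ± 0.06 SE, edgeR adjusted p = 0.00744). RNA does not check loss of the protein. Averaged over both arms of the Nutlin set, Nutlin raised CDKN1A by 1.27 ± 0.06 and MDM2 by 0.56 ± 0.07 on the log2 scale (edgeR adjusted p = 3e-06 and 0.00439). In TPM, the authors' values scaled to transcript length and depth, the summed level of 7 epithelial markers was 3665 to 5708 TPM, and that of 12 markers of other cell types 2.02 to 8.55 TPM, with CD3E and DCN at 0 in all 14 libraries.

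Per unit of transcript length, LMNA was the most abundant of the 10 genes and EMD, LEMD2, SUN2 and LEMD3 were the least. Over all 14 libraries, LMNA averaged 264.5 ± 47.5 TPM (SD, n = 14), TMPO 104.1 ± 11.5 TPM and LMNB2 65.0 ± 7.43 TPM. In each of the 7 groups these 3 followed each other in that order with no overlap between the libraries of neighbours, and LMNB2 was also above SUN1 and LMNB1. SUN1 averaged 50.9 ± 6.35 TPM and LMNB1 46.0 ± 7.94 TPM, and their libraries overlapped in 6 of the 7 groups. LBR averaged 29.4 ± 4.27 TPM, above the remaining 4 genes in each group, and it overlapped LMNB1 in the time-course vehicle group. EMD, LEMD2, SUN2 and LEMD3 averaged 12.7 ± 2.26, 12.7 ± 1.82, 11.7 ± 1.38 and 10.9 ± 1.77 TPM, and most neighbours among them overlapped.

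**Figure D1:**
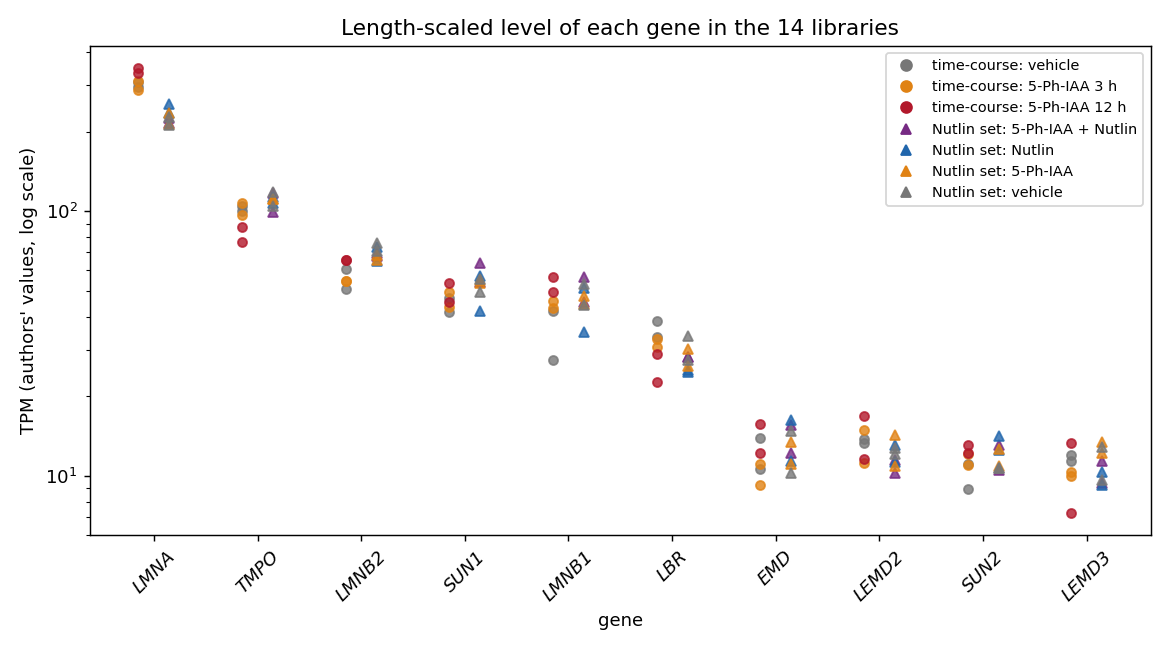
Level of each gene in the 14 libraries in the authors' TPM (log axis), with genes ordered by their mean; circles are time-course libraries and triangles Nutlin-set libraries, coloured by group. LMNA stands above 211 TPM in all 14 libraries, and EMD, LEMD2, SUN2 and LEMD3 lie together between 7.27 and 16.8 TPM.

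The genes also differed in how far they moved across the libraries of a set. In the time-course set LBR had the widest range, from 86.0 to 181 CPM (2.11-fold), and SUN1 the narrowest (1.14-fold), next to LMNB2 (1.16-fold). In the Nutlin set LEMD3 had the widest range (1.53-fold), followed by EMD (13.3 to 19.7 CPM) and LBR (1.35-fold), and LMNB2 the narrowest (1.16-fold). As the root mean square of log2 CPM around the mean of each set, the spread of LBR was 0.29, larger than for 94.6% of the 9556 genes with a mean of at least 10 CPM. LMNB2 and SUN1 had spreads of 0.07 and 0.07, at 3.62% and 4.83% of the same genes, and LMNA had 0.09 at 12.6%.

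**Figure D2:**
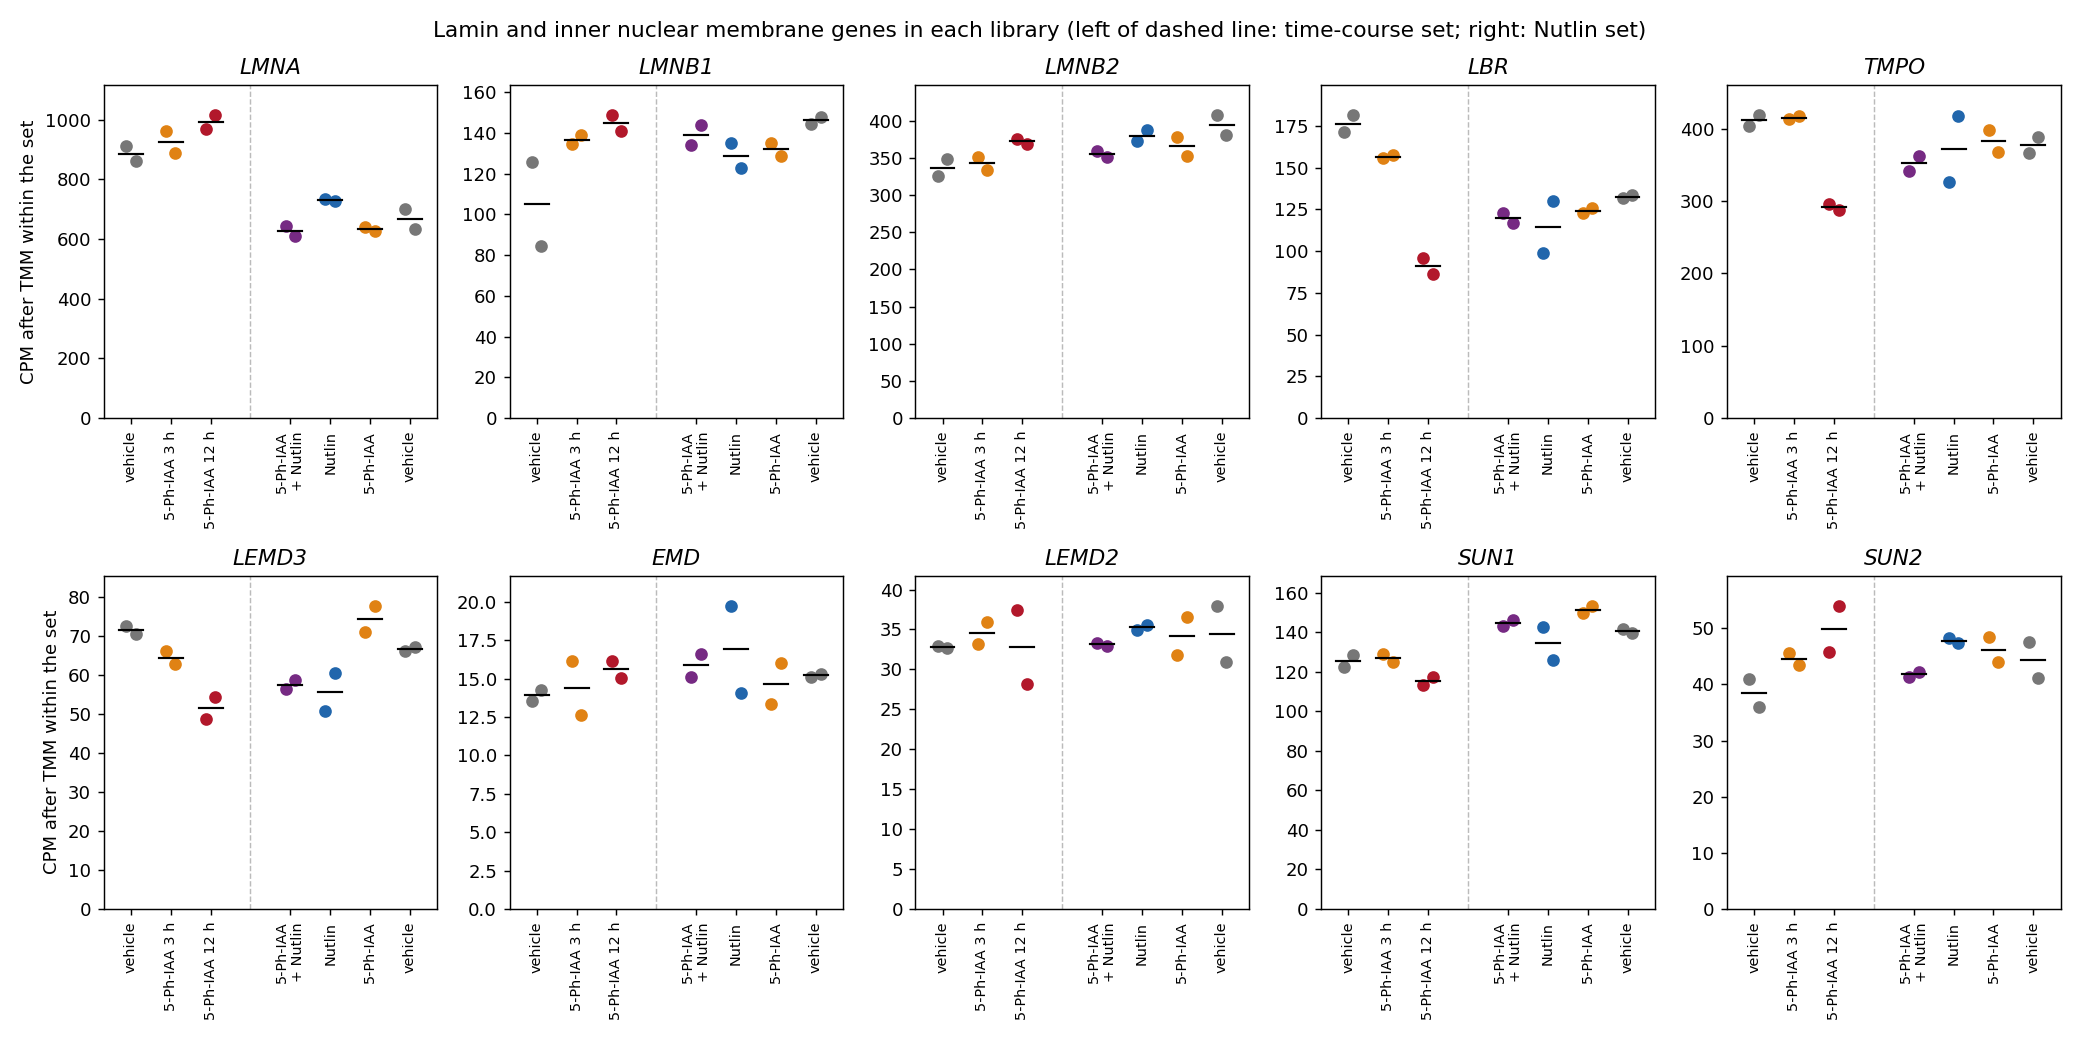
CPM of each gene in each library after TMM scaling within its set (linear axes from 0); points are libraries, coloured by group, and black lines are the means of 2 libraries. LBR, TMPO and LEMD3 are lowest at 12 h of 5-Ph-IAA, where LBR has 95.7 and 86.0 CPM; the 2 sets were scaled separately, so levels are not compared between them.

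After 12 h of 5-Ph-IAA, LBR, TMPO and LEMD3 were lower than in vehicle, and none of the other 7 genes passed the test. LBR fell to 0.522 of its vehicle level, TMPO to 0.71 and LEMD3 to 0.71. These were 3 of 10 genes, all down, by edgeR's quasi-likelihood test at a Benjamini-Hochberg adjusted p under 0.05. Of all 19049 genes tested in that comparison 11.4% were called, 3.39% up and 7.97% down. The libraries of the groups did not overlap for 9 of the 10 genes (5 higher and 4 lower at 12 h), against 50.8% of all genes (22.9% higher and 27.9% lower). The median log2 fold change of the 10 genes was 0.10, against -0.0031 for all genes tested. As in any bulk sample, fewer cells of a type and less RNA per cell cannot be told apart.

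Among the lamins, LMNA (chr1:156082573-156140089, plus strand, GENCODE 29 on GRCh38) had 911 and 863 CPM in vehicle, 961 and 889 CPM at 3 h, and 970 and 1015 CPM at 12 h. The 12 h libraries lay above both vehicle libraries, and the log2 fold change of 0.16 ± 0.06 was not called (edgeR adjusted p = 0.106). LMNB1 (chr5:126776623-126837020, plus strand) had 126 and 84.7 CPM in vehicle, 135 and 139 CPM at 3 h, and 149 and 141 CPM at 12 h. The 2 vehicle libraries differed more from each other than the libraries of either treated group did, and all 4 treated libraries lay above both of them. The share of all genes with that order was not counted. LMNB1 at 12 h over vehicle had a log2 fold change of 0.47 ± 0.14 (edgeR adjusted p = 0.055). Without vehicle replicate 1 it was 0.80 (adjusted p = 1.53e-05), and without vehicle replicate 2 it was 0.22 (adjusted p = 0.201). Over the 14 alternatives without GC correction the adjusted p ran from 1.53e-05 to 0.257, and 9 of them called LMNB1 up. LMNB2 (chr19:2427638-2456996, minus strand) ranged from 325 to 375 CPM over the 6 libraries, with a log2 fold change of 0.15 ± 0.07 at 12 h (edgeR adjusted p = 0.2).

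LBR (chr1:225401502-225428925, minus strand) had 171 and 181 CPM in vehicle, 156 and 157 CPM at 3 h, and 95.7 and 86.0 CPM at 12 h. The 3 groups did not overlap, with vehicle highest and 12 h lowest. The share of all genes with 3 separate groups was not counted. Taken in pairs, groups did not overlap for 38.8% of all genes at 3 h over vehicle, 50.8% at 12 h over vehicle and 51.7% at 12 h over 3 h. At 12 h the log2 fold change over vehicle was -0.94 ± 0.08 (95% interval -1.12 to -0.76, edgeR adjusted p = 0.000171). Against the 3 h libraries it was -0.77 ± 0.08 (adjusted p = 0.000899).

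TMPO (chr12:98515512-98550379, plus strand) encodes the lamina-associated polypeptides 2, whose membrane forms bind B-type lamins and whose alpha form lies in the nucleoplasm with A-type lamins. It had 404 and 419 CPM in vehicle, 413 and 418 CPM at 3 h, and 296 and 288 CPM at 12 h. Vehicle and 3 h libraries overlapped, and both 12 h libraries were lower. The log2 fold change at 12 h was -0.49 ± 0.06 over vehicle (95% interval -0.63 to -0.36, edgeR adjusted p = 0.000754) and -0.51 ± 0.06 over 3 h (adjusted p = 0.00135). TMPO counts were fractional in all 14 libraries, so part of its reads were shared out between features, and TMPO-AS1 overlaps it on the opposite strand. The pseudogenes TMPOP1 and TMPOP2 held at most 0 and 6 counts in any library.

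LEMD3 (chr12:65169571-65248327, plus strand) encodes MAN1, which binds receptor SMADs and limits TGF-beta and BMP signalling. It had 72.7 and 70.5 CPM in vehicle, 66.1 and 62.9 CPM at 3 h, and 48.9 and 54.3 CPM at 12 h. Its 3 groups were ordered like those of LBR and did not overlap, a pattern whose share of all genes was not counted. The log2 fold change at 12 h over vehicle was -0.49 ± 0.10 (95% interval -0.71 to -0.28, edgeR adjusted p = 0.00779), and over 3 h it was -0.34 ± 0.10 (adjusted p = 0.0552), not called. Without 12 h replicate 1, which leaves the shallow library alone in its group, LEMD3 was no longer called (-0.39, adjusted p = 0.138). Against 3 h, LBR and TMPO were thus 2 of 10 genes called, both down, where 8.14% of all genes were called (5.79% down). The 12 h and 3 h libraries did not overlap for 8 of 10 genes, against 51.7% of all genes.

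The other 2 LEM-domain genes and the SUN genes did not pass at 12 h. EMD (chrX:154379197-154381523, plus strand), which encodes emerin, ranged from 12.6 to 16.2 CPM in the time-course set, with a log2 fold change of 0.18 ± 0.18 over vehicle (edgeR adjusted p = 0.597). Its 95% interval of -0.20 to 0.57 was the widest of the 10 genes, on 55 counts in the shallow library. LEMD2 (chr6:33771202-33789136, minus strand), whose product recruits the ESCRT-III protein CHMP7 when the nuclear envelope reseals, had 37.5 and 28.2 CPM at 12 h against 33.0 and 32.6 CPM in vehicle (0.06 ± 0.14, adjusted p = 0.854). SUN1 (chr7:816615-896435, plus strand) had 113 and 117 CPM at 12 h against 122 and 128 CPM in vehicle (-0.13 ± 0.08, adjusted p = 0.361). SUN2 (chr22:38734725-38794143, minus strand) had 45.8 and 54.0 CPM at 12 h against 40.9 and 35.9 CPM in vehicle (0.35 ± 0.12, adjusted p = 0.0891). In CPM, SUN1 and SUN2 thus lay on opposite sides of their vehicle libraries, but neither was called, and the difference between them was not tested. On the authors' TPM both were positive in limma on log2(TPM + 1), SUN1 at 0.15 (adjusted p = 0.566) and SUN2 at 0.32 (adjusted p = 0.346). Other genes overlap both (GET4 with SUN1, DNAL4 and GTPBP1 with SUN2), and their fractional counts show that some reads were shared out. Counts were whole in 10 of 14 libraries for SUN1 and in 1 of 14 for SUN2.

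**Figure D3:**
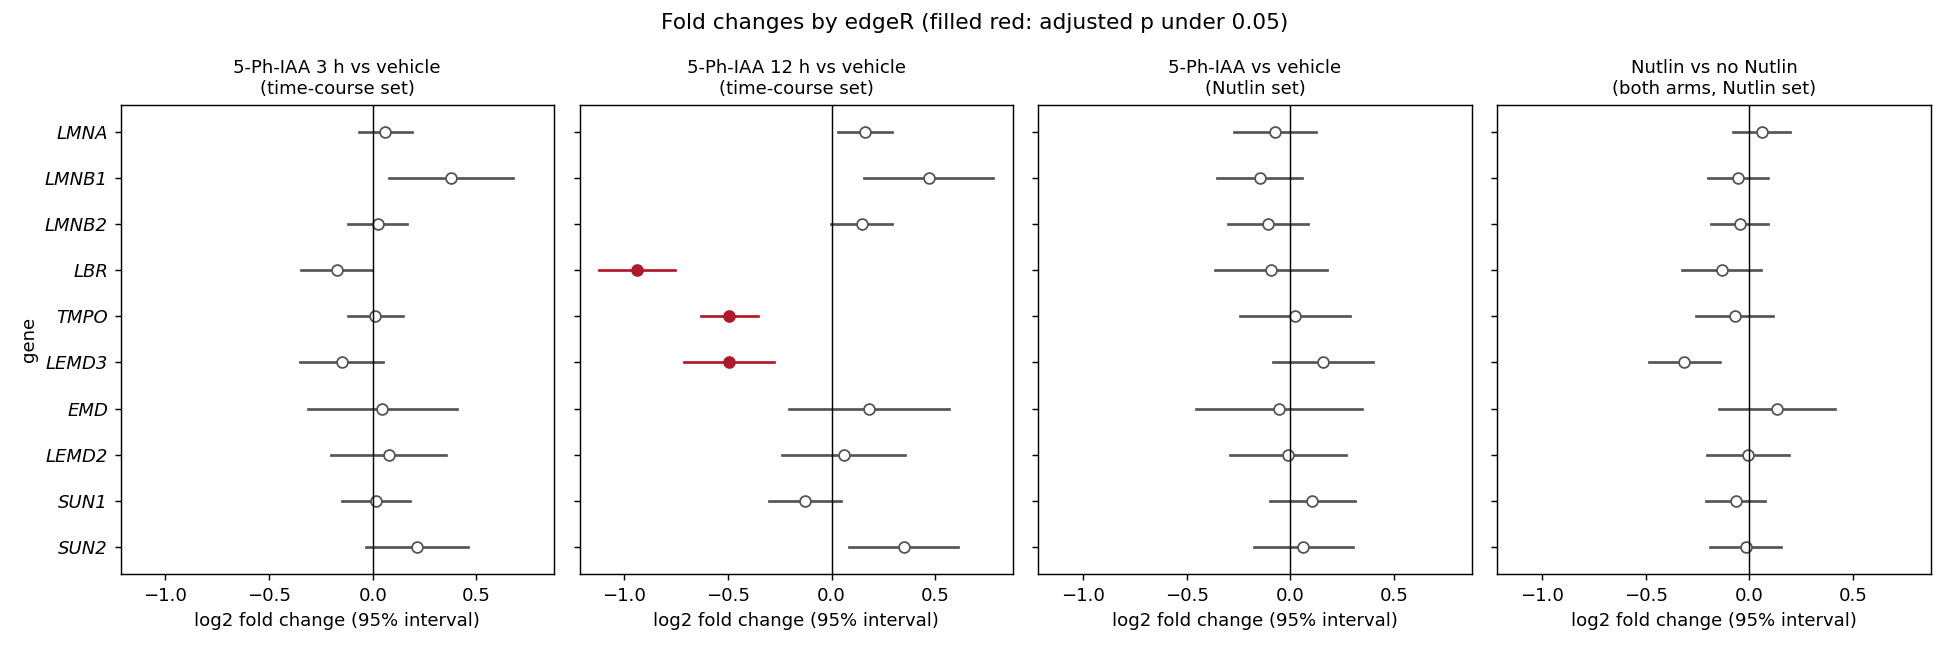
Log2 fold change of each gene with its 95% interval in 4 comparisons by edgeR, as the treated group over its control; filled red points have an adjusted p under 0.05. LBR, TMPO and LEMD3 at 12 h are the only called values in these 4 panels.

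The base composition of the transcripts moved with the 12 h comparison over all genes. Genes whose longest transcript held under 40% G and C had a median log2 fold change of -0.37 and 32.3% of them were called down, whereas genes at 60% and over had a median of 0.14 with 1% called down. LBR, TMPO and LEMD3 had the lowest GC contents of the 10 genes, at 37.8%, 41.4% and 43.4%, and the other 7 lay between 49.3% for SUN1 and 61.5% for LMNA. After a GC trend was removed from each library, LBR was still lower by edgeR (-0.62 ± 0.08, adjusted p = 0.00238), as were TMPO (-0.33 ± 0.06, adjusted p = 0.011) and LEMD3 (-0.41 ± 0.10, adjusted p = 0.043). The correction brought LMNA to -0.01, LMNB2 to -0.02 and LMNB1 to 0.35 (adjusted p = 0.186), and it cut the calls over all genes to 881. With 12 h replicate 2 left out as well, all 3 genes kept their call, and with replicate 1 left out LBR kept it (-0.71, adjusted p = 0.0191) while TMPO had -0.34 (adjusted p = 0.0838) and LEMD3 -0.29 (adjusted p = 0.387).

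**Figure D4:**
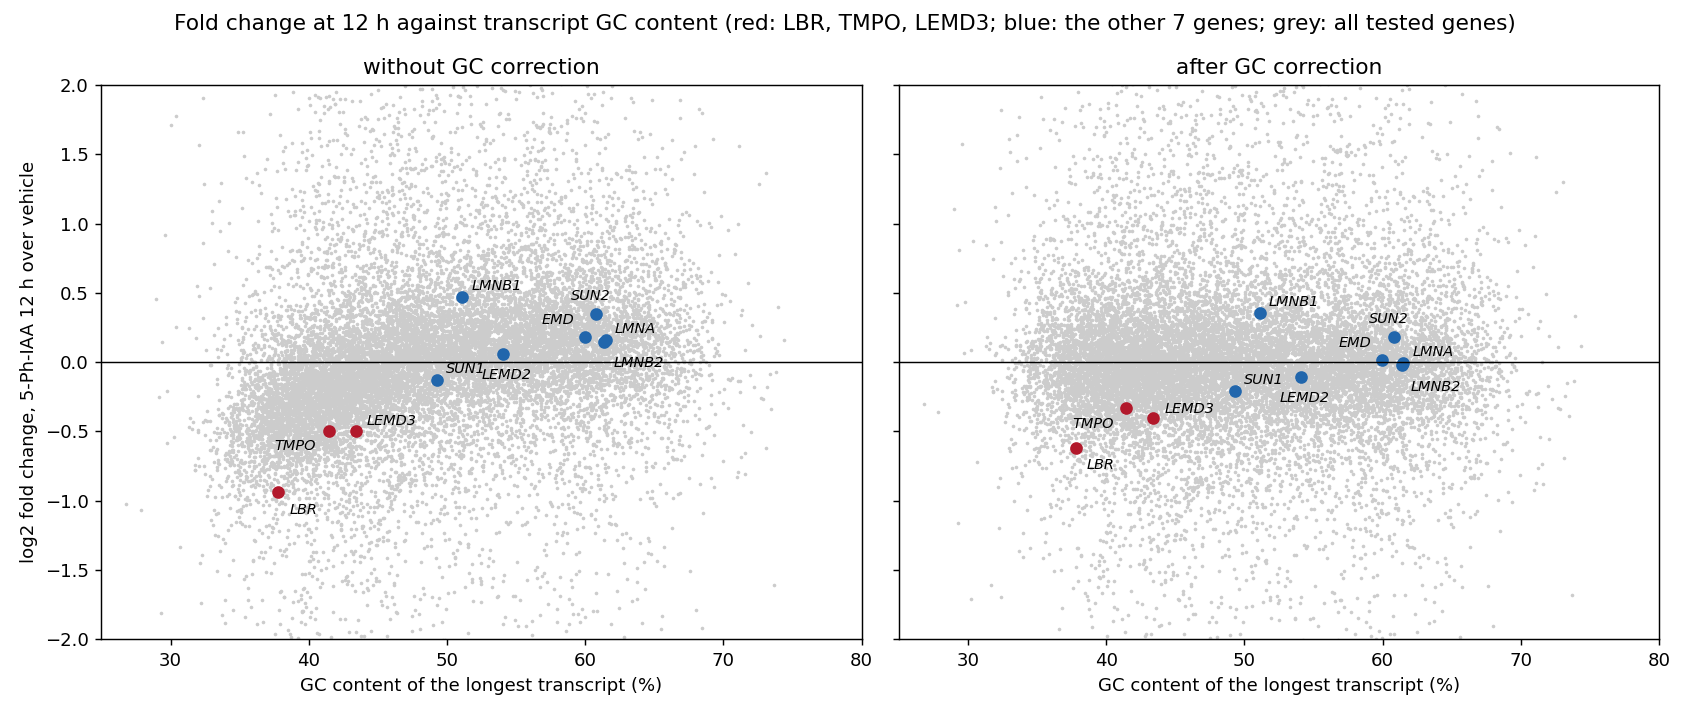
Log2 fold change at 12 h of 5-Ph-IAA over vehicle against GC content of the longest GENCODE 29 transcript, without correction (left) and after GC correction (right); grey points are tested genes, with 990 and 980 of 17075 outside the axes. LBR, TMPO and LEMD3 (red) lie at the low-GC end and below 0 in both panels, while LMNA and LMNB2 sit near 0 after correction.

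The authors' TPM gave smaller differences for the same genes. LBR had 22.7 and 29.03 TPM at 12 h against 33.5 and 38.5 TPM in vehicle, and TMPO had 76.4 and 87.3 TPM at 12 h against 100.5 and 104.5 TPM in vehicle. The groups of both genes stayed apart in this unit. LEMD3 had 7.27 and 13.4 TPM at 12 h against 11.4 and 12.0 TPM in vehicle, and its groups overlapped. The transcript length that RSEM assigned also moved: for LBR it was 3077 and 2298 bases at 12 h against 3491 and 3419 bases in vehicle, and for LEMD3 4780 and 3064 bases at 12 h against 4305 and 4193 bases in vehicle. In limma on log2(TPM + 1), LBR had -0.47 (adjusted p = 0.171), TMPO -0.32 (adjusted p = 0.155) and LEMD3 -0.22 (adjusted p = 0.706), and that test called 2 genes of all tested. The shallow 12 h library had 314 counts for LBR, 1052 for TMPO and 198 for LEMD3, and the part of the length estimates in the TPM values was not tested.

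Because LBR, TMPO and LEMD3 moved together at 12 h, the stretch of 250 bases before each gene's RefSeq start (GRCh38.p14) is given for each. Capitals mark the CCAAT box and an E2F-type site, on either strand, and each stretch is written 5′ to 3′ on the strand of the gene.
LBR, chr1:225428822-225429071, minus strand: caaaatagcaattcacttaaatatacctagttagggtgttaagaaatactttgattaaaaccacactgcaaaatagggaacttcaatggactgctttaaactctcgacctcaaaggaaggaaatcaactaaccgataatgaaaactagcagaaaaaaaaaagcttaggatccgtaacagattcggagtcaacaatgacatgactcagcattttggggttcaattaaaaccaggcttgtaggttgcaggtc
TMPO, chr12:98515323-98515572, plus strand: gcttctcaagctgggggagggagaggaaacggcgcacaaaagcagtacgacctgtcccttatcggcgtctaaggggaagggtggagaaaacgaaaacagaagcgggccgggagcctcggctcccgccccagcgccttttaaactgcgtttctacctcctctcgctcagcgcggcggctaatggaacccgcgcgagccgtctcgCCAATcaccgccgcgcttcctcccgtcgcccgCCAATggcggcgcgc
LEMD3, chr12:65169333-65169582, plus strand: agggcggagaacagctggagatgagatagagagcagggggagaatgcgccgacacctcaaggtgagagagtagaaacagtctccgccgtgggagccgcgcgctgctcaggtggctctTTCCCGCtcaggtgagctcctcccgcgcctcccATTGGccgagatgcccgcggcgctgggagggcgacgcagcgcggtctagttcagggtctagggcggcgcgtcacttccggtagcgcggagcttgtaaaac
Of the 3 motifs searched on both strands, none was in all 3 windows, and the CCAAT box was in those of TMPO and LEMD3. The first was the CCAAT box, spelled CCAAT, the second an E2F-type site, spelled GCGGGAA, and the third the CHR element of cell cycle genes, spelled TTTGAA. TMPO held the CCAAT box 43 and 11 bases before its RefSeq start. LEMD3 held it 96 bases before its RefSeq start and the E2F-type site 127 bases before, both on the other strand, and LBR held none. For all 3 genes the RefSeq start lies downstream of the GENCODE 29 start given above. Each window therefore reaches into the GENCODE 29 span of its gene, and both CCAAT boxes of TMPO lie inside that span. The GC content of the windows was 36.8% for LBR, 64.8% for TMPO and 65.2% for LEMD3. Among all 35116 windows listed, 32% held the CCAAT box, 13.3% the CHR element and 5.52% the E2F-type site. Of the 9 windows found for the 10 genes, taking the first listed for each, 5, 2 and 2 did. The motifs do not overlap each other in these windows, and a match describes letters only.

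At 3 h of 5-Ph-IAA no gene of the 10 was called in either set. In the time-course set edgeR called 0 of 10 genes, where 0.0682% of all genes were called, and DESeq2 called 0. At an unadjusted p under 0.05 there were 2 of 10, LMNB1 and LBR, and 6.45% of all genes. The lowest and highest values were LBR at -0.17 ± 0.08 (edgeR adjusted p = 0.766) and LMNB1 at 0.38 ± 0.14 (adjusted p = 0.722). The libraries did not overlap for 5 of 10 genes, LMNB1, LEMD2 and SUN2 higher and LBR and LEMD3 lower at 3 h, against 38.8% of all genes (18.7% higher and 20.1% lower). Without vehicle replicate 1, LMNB1 had 0.71 at 3 h. That fit kept only vehicle replicate 2, at 84.7 CPM. The replicate left out had 126 CPM, nearer to the 135 and 139 CPM at 3 h.

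In the Nutlin set, 5-Ph-IAA alone gave 0 of 10 calls by edgeR and by DESeq2, and edgeR called 0% of all 17251 genes. At an unadjusted p under 0.05 there were 0 of 10, and 245 of all genes (1.42%). LMNB1 had 135 and 129 CPM with 5-Ph-IAA against 145 and 148 CPM in vehicle (-0.15 ± 0.09), so both treated libraries were the lower ones, unlike in the time-course set. LEMD3 had 71.1 and 77.7 CPM with 5-Ph-IAA against 66.2 and 67.1 CPM in vehicle (0.16 ± 0.11), again on the other side from the time-course set. The groups did not overlap for 5 of 10 genes, against 29.5% of all genes, and the 95% intervals of the 10 genes ran from -0.46 to 0.40.

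The test of the difference between the sets called neither. The 3 h effect in the Nutlin set minus that in the time-course set was -0.54 ± 0.19 for LMNB1 (edgeR adjusted p = 0.714) and 0.29 ± 0.11 for LEMD3 (adjusted p = 0.732). It called 0 of 10 genes by edgeR and by DESeq2, with 0.0636% of all genes called by edgeR, and these 2 were the genes at an unadjusted p under 0.05 (6.35% of all genes). Without time-course vehicle replicate 1, the higher of the 2 vehicle libraries for LMNB1, the difference for LMNB1 was -0.86. With the 8 vehicle and 3 h libraries in 1 fit, the common effect called 0 of 10 genes by edgeR and by DESeq2, and edgeR called 0% of 18873 genes. At an unadjusted p under 0.05 there was 1 of the 10, and 872 of all genes (4.62%). That gene was LBR, which had -0.13 ± 0.05 in that fit (edgeR adjusted p = 0.943), and the 95% intervals of the 10 genes ran from -0.23 to 0.38.

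Under Nutlin, LEMD3 was the gene with the largest difference of the 10, and it did not pass. It had 56.4 and 58.7 CPM with 5-Ph-IAA and Nutlin, 50.8 and 60.7 CPM with Nutlin, 71.1 and 77.7 CPM with 5-Ph-IAA, and 66.2 and 67.1 CPM in vehicle. All 4 libraries with Nutlin lay below the 4 without it, and the share of all genes that did so was not counted. Averaged over both arms, the log2 fold change was -0.31 ± 0.08 (95% interval -0.48 to -0.14, edgeR adjusted p = 0.095). That contrast called 0 of 10 genes by edgeR and by DESeq2, with 1.44% of all genes called by edgeR, and LEMD3 was the 1 gene at an unadjusted p under 0.05 (13.4% of all genes). LEMD3 had -0.25 without Nutlin replicate 1 and -0.38 without Nutlin replicate 2, and over its alternatives it was negative throughout. Some alternatives called LEMD3 and others, DESeq2 among them, did not. It was called with no low-count filter (edgeR adjusted p = 0.0293) and after GC correction (edgeR adjusted p = 0.0385).

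LBR had 123 and 117 CPM with 5-Ph-IAA and Nutlin, 98.8 and 130 CPM with Nutlin, 123 and 126 CPM with 5-Ph-IAA, and 132 and 133 CPM in vehicle. Its 2 Nutlin libraries spanned nearly the whole range of the set. Those Nutlin libraries were also the replicate pair with the largest difference in counts over all genes (chi-square per degree of freedom 22.2, against 3.28 to 14.8 in the other 6 groups). Without Nutlin replicate 2, Nutlin over vehicle gave LBR -0.42 and LEMD3 -0.40. Without Nutlin replicate 1 it gave LBR -0.03 and LEMD3 -0.13, so the size of both differences rests on which Nutlin library is kept. With all libraries the values were -0.21 ± 0.12 for LBR (edgeR adjusted p = 0.568) and -0.26 ± 0.11 for LEMD3 (adjusted p = 0.439).

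The 4 pairwise comparisons with Nutlin each called 0 of 10 genes by edgeR and by DESeq2. Nutlin over vehicle had 1 gene at an unadjusted p under 0.05 (10.8% of all genes), with 0.464% of all genes called by edgeR, and 4 of 10 genes without overlap against 36.1% of all. With both agents over vehicle there were 0 genes at that p (7.26% of all), with 0.325% of all genes called, and 6 of 10 without overlap against 45%. With both agents over 5-Ph-IAA there was 1 such gene (7.61% of all), LEMD3 (-0.37 ± 0.11, edgeR adjusted p = 0.366), with 0.388% of all genes called. There, 4 of 10 genes did not overlap (TMPO, LEMD3, SUN1 and SUN2, all lower with both agents), against 46.4% of all (23.3% lower). These comparisons share libraries, so their values are not independent of each other.

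For LMNA the both-agent libraries were the lower ones beside Nutlin alone. It had 645 and 609 CPM with 5-Ph-IAA and Nutlin against 735 and 728 CPM with Nutlin (-0.22 ± 0.09, edgeR adjusted p = 0.604), the 1 gene of the 10 at an unadjusted p under 0.05. In that comparison 0% of all genes were called by edgeR (1404, or 8.14%, at an unadjusted p under 0.05), and 5 of 10 genes did not overlap against 35.5% of all. The interaction of 5-Ph-IAA and Nutlin called 0 of 10 genes by edgeR and by DESeq2, and edgeR called 0% of all genes. At an unadjusted p under 0.05 there were 0 of 10, and 623 of all genes (3.61%). Its values lay between -0.25 ± 0.15 for SUN2 and 0.26 ± 0.13 for LMNB1, with 95% intervals from -0.59 to 0.55.

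Of the remaining genes in the Nutlin set, TMPO lay between 326 and 417 CPM, its lowest and highest libraries both being Nutlin alone, and LMNB2 lay between 351 and 407 CPM. SUN1 had 126 to 153 CPM and SUN2 41.1 to 48.4 CPM. EMD had 13.3 to 19.7 CPM, with both vehicle libraries inside the range of the treated ones. LEMD2 had 30.9 to 37.9 CPM, and its lowest and highest libraries were both vehicle.

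For each of the 3 genes called at 12 h, the genes of most similar profile were sought among 9556 genes over all 14 libraries. Similarity was the root mean square difference of log2 CPM after centring on the mean of each set. For LBR, whose own spread was 0.29, the closest were MAN2A1 (0.06), CNIH1 (0.07) and COPS2 (0.07). For TMPO, with a spread of 0.18, they were VAPA (0.04), TM9SF2 (0.04) and GPSM2 (0.04). For LEMD3, with a spread of 0.19, they were TRIM13 (0.06), HIPK3 (0.07) and BRWD1 (0.07). All profiles come from the same libraries and share their depth. The longest transcripts of these 9 genes held from 33.7% G and C for COPS2 to 44.6% for TM9SF2.

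Among 38 tested genes of 4 related lists, 9 were called at 12 h over vehicle by edgeR, 2 up and 7 down, beside the 11.4% called over all genes. Of 12 genes for lamin processing and chromatin tethering, 4 fell and 0 rose. They were ZMPSTE24, the protease that cleaves prelamin A (-0.54 ± 0.08, edgeR adjusted p = 0.00122), CBX3, a heterochromatin protein 1 (-0.43 ± 0.06, adjusted p = 0.00122), FNTA, a farnesyltransferase subunit (-0.50 ± 0.11, adjusted p = 0.0119), and ICMT, which methylates farnesylated ends (-0.28 ± 0.07, adjusted p = 0.0271). The median of that list was 0.0085, against -0.0031 for all genes tested. Against the 3 h libraries the same 4 genes were called down and CBX5, another heterochromatin protein 1, was up (0.40 ± 0.09, adjusted p = 0.0179). In that comparison 8.14% of all genes were called (5.79% down).

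The calls in the other lists stand beside the same 11.4% of all genes called at 12 h over vehicle (3.39% up and 7.97% down). Of 8 other inner membrane genes, TMEM201 rose (0.79 ± 0.16, edgeR adjusted p = 0.00843), NEMP1 fell (-0.47 ± 0.12, adjusted p = 0.0217), and the list's median was 0.05. Of 8 genes of the outer membrane and the LINC complex, only TMEM33 was called (-0.34 ± 0.07, adjusted p = 0.0118), while the nesprin genes SYNE1 and SYNE2 were not, and the median was 0.04. Of 10 genes for resealing of the nuclear envelope, the microtubule-severing ATPase gene SPAST fell (-0.58 ± 0.13, adjusted p = 0.0155) and the ESCRT ATPase gene VPS4A rose (0.38 ± 0.09, adjusted p = 0.0161), with a median of 0.09. Of 7 epithelial marker genes, KRT18 rose by 0.34 and KRT19 by 0.20 on the log2 scale (adjusted p = 0.0108 and 0.0123). Of the 7, 6 were positive, while EPCAM averaged 220 CPM at 12 h against 245 CPM in vehicle. The summed level of the 7 was 5673 and 5708 TPM at 12 h against 4739 and 4835 TPM in vehicle. Most of that sum was keratin: KRT8, KRT18 and KRT19 averaged 1977, 1337 and 2036 TPM at 12 h.

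Some of these calls changed under the same alternatives. After GC correction, ICMT (-0.36, edgeR adjusted p = 0.0149) and TMEM201 (0.63, adjusted p = 0.0497) kept their calls, and the other 7 related genes and both keratins lost theirs. Calls over all genes fell from 2163 to 881 with that correction. TMEM33 then stood at 0.04, and ZMPSTE24 at -0.22 (adjusted p = 0.117). Without 12 h replicate 1, ZMPSTE24 and CBX3 were the 2 related genes still called, and without replicate 2 all but ICMT were. The fold changes of the genes that lost their call without replicate 1 kept their direction, with larger errors. FNTA had -0.49 ± 0.16, TMEM33 -0.34 ± 0.10, ICMT -0.26 ± 0.09, SPAST -0.67 ± 0.20, VPS4A 0.39 ± 0.12, NEMP1 -0.31 ± 0.15 and TMEM201 0.63 ± 0.23. At 3 h and in the Nutlin set edgeR called 0 genes of these 4 lists in any comparison, with 0 to 5 at an unadjusted p under 0.05 and 0 called by DESeq2.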

How the data were processed

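The authors deposited 1 RSEM table per library with expected counts, TPM and an assigned transcript length (in bases, per the file headers) for each gene. Libraries were made with a stranded total RNA kit, per the labels' protocols. The submitters' processing notes name STAR 2.7.10b, RSEM, DESeq2 1.48.1 and hg38, and the annotation release and counting strand are not given in the sources used here.

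Expected counts as the authors deposited them were rounded, scaled by TMM and tested with edgeR 4.0.16 (quasi-likelihood F test, R 4.3.3). Genes were filtered with filterByExpr (minimum count 10, total 15), and p-values were adjusted by Benjamini-Hochberg over all genes tested, with 0.05 as the threshold. The time-course and Nutlin sets were fitted separately, with the group as the only term. The 3 h effect common to both sets used a term for the set. The difference of the 3 h effect between sets was a contrast on the same libraries with the group as the only term. CPM are TMM-scaled within a set. Errors beside fold changes are SE from the F statistic, with 95% intervals on the fit's total degrees of freedom. The code was tested on simulated data. The authors' TPM were used for levels between genes.

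The 10 genes, the related lists, the motifs and the markers were chosen with earlier results of these data known. All 10 genes are named in each comparison, and from each other list the called genes, up to 4 by p. Coordinates and GC contents come from GENCODE 29 on GRCh38, promoter sequences from RefSeq (GRCh38.p14). A GC content was found for 89.6% of the time-course genes and for all 10.

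Alternatives were DESeq2 1.42.0, RLE size factors, no filter, a replicate block, each library left out, other sets of libraries in the fit and, chosen after the data were seen, GC correction (lowess span 0.3), limma 3.58.1 on log2(TPM + 1) and thinning to the smallest library. Same-numbered libraries did not deviate together (correlations of deviations -0.29 to 0.16), so numbers were not taken to pair libraries.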

Additional observations from a re-analysis of the deposited data

How the results depend on the processing

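At 12 h over vehicle, 3 of the 10 genes were called, against 5 by DESeq2 (LMNA and LMNB1 in addition, both up), 5 in thinned libraries, 0 on the authors' TPM, and 1 after GC correction without 12 h replicate 1. Leaving out each library in turn gave 2 to 6 calls, the highest without vehicle replicate 1 (LMNA, LMNB1 and SUN2 in addition). At 12 h over 3 h, 2 were called, against 3 (LEMD3 in addition) with no low-count filter, in thinned libraries and with only the compared groups, 0 on TPM, 1 after GC correction without 12 h replicate 1, and 2 to 3 with a library left out. Where 0 were called, 1 was called with no low-count filter at 3 h over vehicle in the time-course set (LMNB1), in the difference between sets (LMNB1) and for Nutlin averaged over both arms (LEMD3). LEMD3 also made 1 for that average after GC correction and with all 14 libraries in 1 fit, and 1 for both agents over 5-Ph-IAA with only the compared groups. With a library left out, calls among the 10 also appeared for 3 h over vehicle, Nutlin over vehicle and the Nutlin average. They appeared as well for both agents over 5-Ph-IAA, both agents over Nutlin and the difference between sets. Calls over all genes also moved between alternatives, so these calls are not read as particular to the 10 genes. The cause of these differences was not tested. No called value turned its direction. Over single genes and comparisons, 1812 alternatives kept side and direction, 36 gained a call, 9 lost one, and 143 turned a sign that was not called. The replicate block changed 1 call (LMNB1 at 12 h over vehicle, 0.47, edgeR adjusted p = 0.0136). Calls over all genes at 12 h over vehicle were 2163, against 881 after GC correction. They ran from 2 (TPM) to 2909 (no low-count filter) over all alternatives, DESeq2 and thinned libraries among them. At 12 h over 3 h they were 1551, and 1 (TPM) to 2448 (no low-count filter) over the alternatives.

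With 2 libraries a group, the 95% intervals bound what could be detected, and the shallow 12 h library holds 55 counts of EMD. A library left alone in its group was assumed to vary like the others. The 12 h comparison rests on 1 deep library and 1 of 3535163 counts.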
